A study of Mus musculus with 24 samples.

Results

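The comparison described here set the livers of mice that had lost weight by either of 2 routes against the livers of mice after a sham operation. All 24 libraries of the series entered it, 8 from each of 3 groups, and all livers were taken at 20 weeks from the operation. The RYGB mice had Roux-en-Y gastric bypass, an operation that leaves a small stomach pouch and joins it to a lower part of the small intestine, so that food passes by most of the stomach and the first part of the gut. WM mice were held at the weight of the RYGB group by restricting their calories, and Sham mice had a sham operation. The sources used here do not give strain, sex, age, diet or any genetic change of the mice, and the labels do not say whether the WM mice were operated on. The mean of WM and RYGB, each weighing equally, was compared with Sham in 1 model of all libraries, and 13121 of 14995 genes in the table passed the filter on low counts and were tested. Two-sided tests of WM against Sham and of RYGB against Sham in the same model share the Sham libraries, and their values are given side by side. The difference RYGB minus WM uses no Sham library.

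The liver takes up fat from the blood and from the gut, makes fatty acids and cholesterol, packs neutral fat into droplets and exports it in lipoproteins. Many mouse liver genes differ between the sexes because the pulsed male and the steadier female release of growth hormone act on them through the factor STAT5, and fasting, overfeeding and obesity are known to alter that axis. Resident Kupffer cells clear particles from the blood, recruited macrophages gather around fat-laden hepatocytes, and stellate cells lay down collagen when they are activated. Weight loss is known to lower liver fat, and a weight-matched group serves to tell effects of the operation from effects of the lost weight.

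Total counts per library were 13659647 to 17391377 in Sham, 14208021 to 22766612 after WM and 14002193 to 19958019 after RYGB. Hepatocyte markers were present in every library, with albumin (Alb) at 21510 CPM (counts relative to the TMM-scaled library total) or more. Between the 8 Sham libraries and the 16 others, library totals, mitochondrial share and the share of the 10 most abundant genes did not pass a two-sided exact permutation test adjusted over 5 measures (adjusted p = 0.345, 0.602 and 0.345), while the mean number of genes detected was 14620 in Sham, 14219 after WM and 14279 after RYGB (adjusted p = 0.0363). A further 3 libraries stood apart through transcripts of the exocrine pancreas, with 19 such genes summing to 1387 CPM in library Sham 17, to 3118 CPM in library RYGB 18 and to 3089 CPM in library RYGB 19, and to at most 27.0 CPM in the other 21. For each library, the log2 CPM of each gene was taken as a deviation from the gene's mean over all 24 libraries. The slope of this deviation on log2 transcript length was 0.168 ± 0.0514 (SD, n = 8) in Sham. It was -0.105 ± 0.0790 (SD, n = 8) in WM and -0.0628 ± 0.0576 (SD, n = 8) in RYGB. Only differences between groups can be read from such slopes, as their sign within a group depends on the other groups. The lowest Sham slope was 0.0996 and the highest of the 16 others was 0.0513, so that the groups did not overlap (two-sided exact permutation p = 1.36e-06, the smallest it can give, adjusted p = 6.8e-06).

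Weight loss by either route moved a large part of the measured liver transcriptome, in equal measure up and down. With edgeR's quasi-likelihood test and an adjusted p under 0.05, 2287 genes were higher (17.4% of those tested) and 2259 lower (17.2%), 4546 in all (34.6%). By both routes, meaning that WM and RYGB were each called against Sham in the direction of their mean, 1354 genes were higher (10.3%) and 1105 lower (8.42%). The median log2 fold change was 1.00 among the 1354 genes higher by both routes, -0.99 among the 1105 lower ones and -0.01 over all tested genes. At least 2-fold shifts by both routes numbered 675 upward and 544 downward. Library by library, 231 genes had all 16 WM and RYGB libraries above every Sham library (1.76% of genes) and 141 had all 16 below (1.07%), and all 372 of them were among the genes moved by both routes. The balance of higher and lower calls rests on the scaling: with TMM factors 50.31% of the 4546 calls were higher, while with library totals alone the median of all genes moved to -0.35, 1051 genes were higher and 4560 lower, and 18.73% of calls were higher. Without the 3 libraries holding pancreas transcripts 1917 genes were higher and 1820 lower, and 1042 and 759 moved by both routes.

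For most genes moved by both routes, the shifts after WM and after RYGB lay within 2-fold of each other. That margin is about as large as the median shift of these genes. The 95% interval of RYGB minus WM lay within a 2-fold difference for 1923 of 2459 such genes (78.2%), and within 1.5-fold for 926 (37.7%). Among those moved at least 2-fold, it lay within a 2-fold difference for 701 of 1219. These shares hold for genes chosen by calls in the same direction against the same Sham libraries. The share over all tested genes was not computed. Of the genes moved by both routes, 36 (1.46%) had a called difference between routes, 2 of which also lay within the 2-fold interval. For 502 neither statement held, as the interval reached beyond 2-fold without a called difference. Some of these intervals left out 0, such as that of Hsd3b5 (RYGB minus WM, 95% interval -2.77 to -0.83). Calls against Sham were made for 31.4% of genes after WM and 23.7% after RYGB, and RYGB minus WM was called for 1.49%. A further 2087 genes were called in the mean of the routes but not by both, and of these 69 had a called difference between routes.

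**Figure D1:**
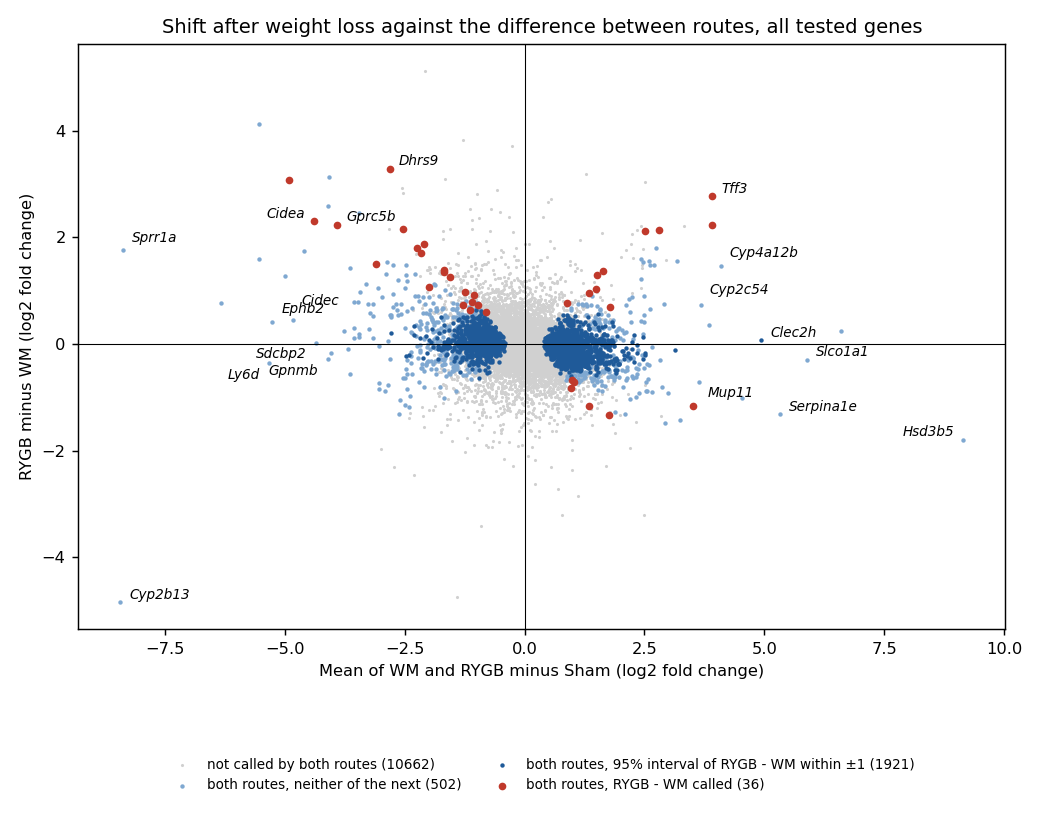
Each point is 1 of 13121 tested genes, with the log2 fold change of the mean of WM and RYGB against Sham on the x axis and the log2 difference RYGB minus WM on the y axis. Dark blue points (1921) moved by both routes with a 95% interval of RYGB minus WM inside 1 log2 unit. Light blue points (502) moved by both with an interval reaching beyond 1 log2 unit and no called difference. Red points (36) moved by both with a called difference, and grey points (10662) were not called by both. The widest shifts, such as Hsd3b5 and Slco1a1, lie far from 0 on the x axis.

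The largest upward shifts were those of enzymes, a carrier, secreted proteins and a lectin-like receptor. Hsd3b5 (chromosome 3, 98618634 to 98630252, GRCm38), a keto-steroid reductase known for its male-biased expression, had no count in 3 Sham libraries and stood at 0 to 0.742 CPM in Sham (median 0.0693), 94.3 to 373 CPM in WM (median 159) and 1.79 to 128 CPM in RYGB (median 59.6). Every WM and RYGB library was above every Sham library, and the lowest RYGB library was closer to Sham than to the other RYGB libraries. Its log2 fold change was 9.15 ± 0.72 (SE, adjusted p = 3.56e-10). Slco1a1 (chromosome 6, 141907282 to 141946962), a hepatocyte uptake carrier for bile salts and other organic anions, ran from 0.450 to 18.0 CPM in Sham (median 1.32), 151 to 363 after WM (median 259.8) and 73.7 to 276 after RYGB (median 244). The groups did not overlap, with a log2 fold change of 5.89 ± 0.42 (adjusted p = 8.73e-09). Clec2h (chromosome 6, 128662385 to 128677374), a C-type lectin-like receptor, stood at 0.498 to 2.60 CPM in Sham (median 1.01), 19.0 to 66.1 after WM (median 33.1) and 19.4 to 65.1 after RYGB (median 33.9). WM and RYGB covered like ranges, without overlap with Sham, with a log2 fold change of 4.94 ± 0.29 (adjusted p = 3.35e-11) and a RYGB minus WM difference of 0.07 (95% interval -0.53 to 0.66).

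The remaining 5 of the 8 largest rises took in a protease inhibitor, cytochromes P450, a urinary protein and a mucosal peptide. Serpina1e, an alpha-1-antitrypsin of the mouse, ran from 16.7 to 166 CPM in Sham, 886 to 10960 after WM and 269.6 to 3230 after RYGB (log2 fold change 5.33 ± 0.44, adjusted p = 9.92e-08). Cyp2c54, a P450 of the 2c family, ran from 3.42 to 37.7 CPM in Sham, 81.2 to 218 after WM and 179 to 325 after RYGB (log2 fold change 3.67 ± 0.32, adjusted p = 5.02e-08). Neither gene's groups overlapped with Sham. Cyp4a12b, a male-biased fatty acid hydroxylase, had 0.0432 to 3.26 CPM in Sham, 1.69 to 42.6 after WM and 16.9 to 86.2 after RYGB (log2 fold change 4.09 ± 0.51, adjusted p = 4.64e-06). Mup11, a major urinary protein that carries pheromones, had 7.27 to 298 CPM in Sham, 235 to 3324 after WM and 118 to 1236 after RYGB (log2 fold change 3.63 ± 0.56, adjusted p = 0.000143). In both, the highest Sham libraries reached into the lower end of the treated ones. Serpina1e, Cyp2c54, Cyp4a12b and Mup11 belong to families of near-identical genes, and the sources used here do not say how reads matching several of them were counted, so that their levels may be shared with their relatives. The same limit may apply to members of the Cyp2b, Cyp2c, Cyp3a and Mup families named below.

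**Figure D2:**
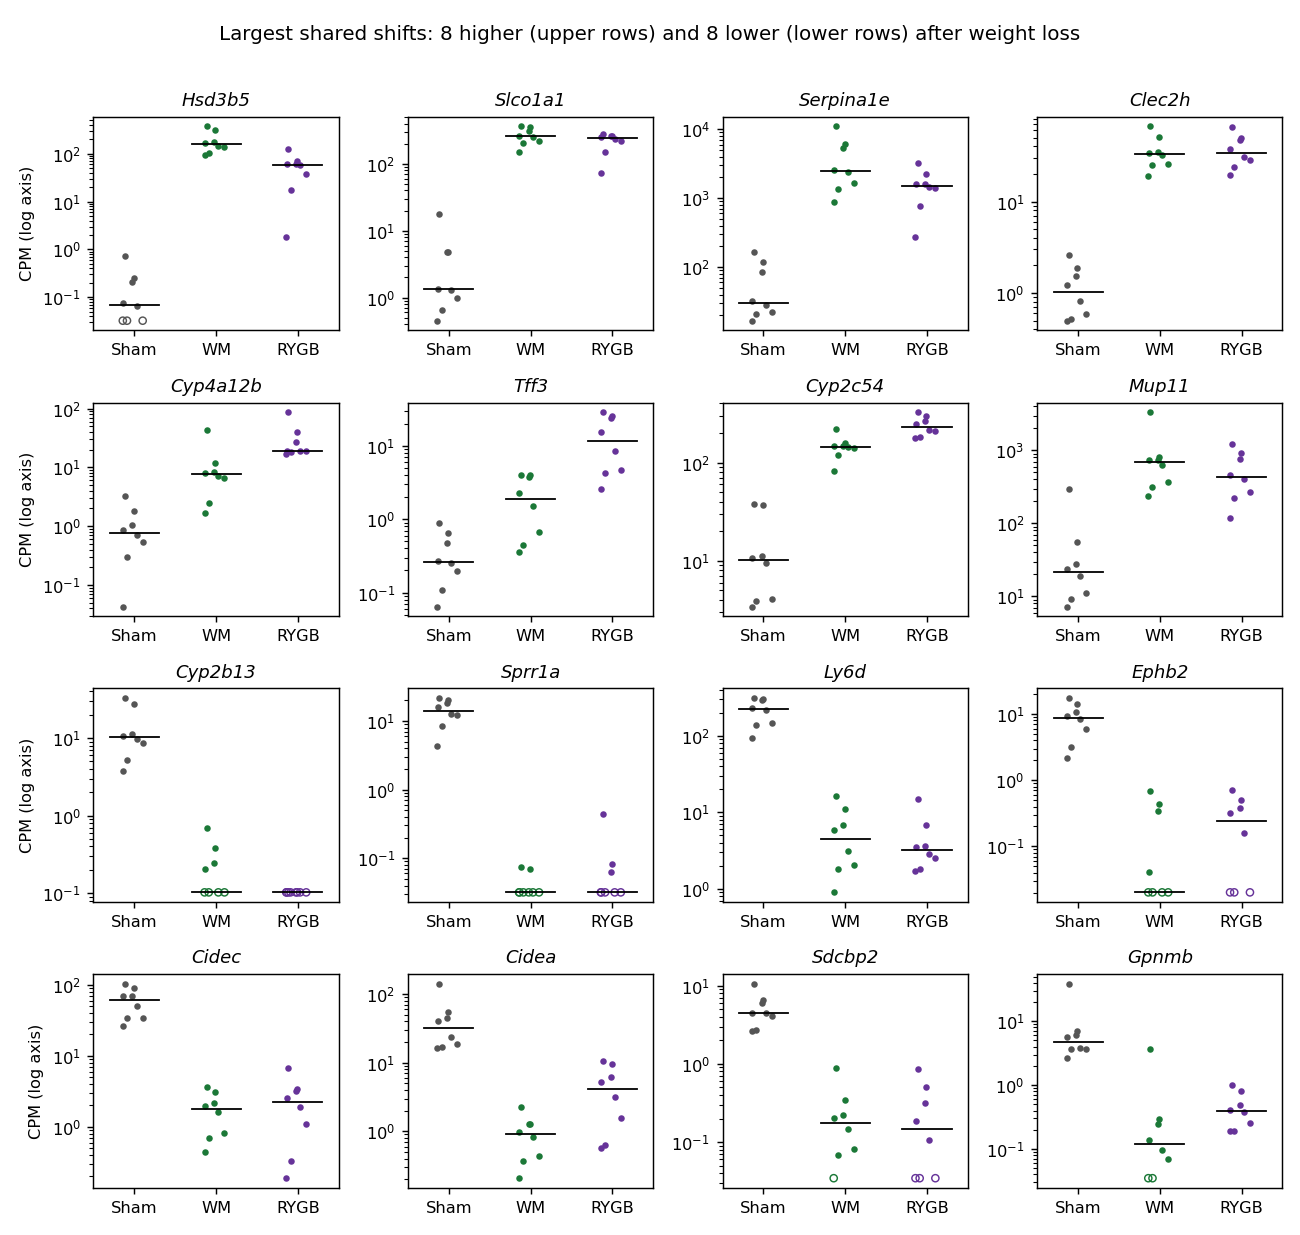
CPM of each library on log axes for the 8 genes with the largest rise and the 8 with the largest fall by both routes, with 1 point per library, 8 libraries per group, a bar at the group median and open circles at the foot of the axis for libraries with no count. The genes were chosen to have every WM and RYGB library beyond the Sham median. In Cyp4a12b, Tff3, Mup11 and Gpnmb the range of Sham and that of at least 1 treated group overlap.

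The largest downward shifts went to a female-biased P450, to genes of squamous or stressed epithelium and to droplet proteins. Cyp2b13 (chromosome 7, 26061497 to 26096197), a female-biased P450, stood at 3.71 to 32.7 CPM in Sham (median 10.2) and 0 to 0.682 after WM (median 0.102), and no RYGB library had a count. Set against a floor of 3 counts over the RYGB group, it was 586.5-fold lower there (adjusted p = 1.91e-09 for the mean of the routes in edgeR's test). The lower end of its 95% counting interval was 476.6-fold, a bound that covers counting error only. Sprr1a (chromosome 3, 92483952 to 92485895), an envelope protein of squamous epithelium, stood at 4.38 to 21.5 CPM in Sham (median 14.1), at most 0.0756 after WM and at most 0.448 after RYGB (adjusted p = 1.69e-13). The WM libraries held 2 counts of it in all, which puts Sham 893-fold higher with a counting interval of 247 to 7375. Ly6d (chromosome 15, 74762056 to 74763620), a small surface protein of the Ly6 family, ran from 94.1 to 309 CPM in Sham (median 223), 0.899 to 16.5 after WM (median 4.53) and 1.70 to 15.0 after RYGB (median 3.17). Every treated library was below every Sham library, with a log2 fold change of -5.34 ± 0.39 (adjusted p = 1.99e-10).

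The droplet proteins Cidec and Cidea were low by both routes. Cidec (chromosome 6, 113424634 to 113435760), which fuses lipid droplets into larger ones, ran from 26.3 to 103 CPM in Sham (median 60.3), 0.448 to 3.61 after WM (median 1.79) and 0.189 to 6.78 after RYGB (median 2.24). No treated library reached the lowest Sham library, and the log2 fold change was -4.83 ± 0.38 (adjusted p = 3.56e-10). Cidea, its relative with the same action, ran from 16.6 to 140 CPM in Sham, 0.208 to 2.27 after WM and 0.579 to 10.6 after RYGB (log2 fold change -4.40 ± 0.44, adjusted p = 1.72e-08). Ephb2, a receptor kinase for ephrins, fell by 5.26 ± 0.55 on the log2 scale, Sdcbp2, a scaffold protein with PDZ domains, by 4.36 ± 0.50, and Gpnmb, a glycoprotein of lipid-laden macrophages, by 4.11 ± 0.60 (adjusted p = 1.47e-08, 8.31e-08 and 3.83e-06). Gpnmb was at 38.3 CPM in 1 Sham library and at 2.67 to 7.14 in the other 7, and at 3.68 CPM in 1 WM library, which was the only treated library to reach the Sham range.

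Among genes that moved at least 2-fold, the routes were most closely alike for a set of moderate rises. Sult1b1, a sulfotransferase for phenols and thyroid hormones, stood at 69.4 CPM or less in Sham (median 49.1), at 69.5 or more after WM (median 99.8) and at 89.1 or more after RYGB (median 102). Its log2 fold change was 1.03 ± 0.13 (adjusted p = 2.05e-06), and RYGB minus WM was -0.01 (95% interval -0.32 to 0.30). Nat8f1, an N-acetyltransferase, ran from 88.7 to 151 CPM in Sham, 262 to 554 after WM and 297 to 472 after RYGB. Its log2 fold change was 1.72 ± 0.14 (adjusted p = 1.86e-09), and RYGB minus WM was 0.01 (95% interval -0.31 to 0.33). The methylglyoxal-clearing hydrolase Hagh (1.24 ± 0.13), the complex I assembly factor Timmdc1 (1.17 ± 0.13), the splicing assembly protein Gemin7 (1.01 ± 0.15) and the esterase Iah1 (1.42 ± 0.14) had intervals of RYGB minus WM between -0.36 and 0.36. Of these 6 genes, the treated libraries lay above every Sham library in all but Gemin7.

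Ribosomal and mitochondrial genes rose widely by both routes. Here and for every list below, the shares of all genes to read a count against are 10.3% higher and 8.42% lower by both routes. Of 62 genes of the cytosolic ribosome, which translates messenger RNA, 58 were higher by both routes and 0 lower (93.5%, against 10.3% of all genes), with a median log2 fold change of 1.48 against -0.01 over all genes, and 33 were separated from Sham library by library. Rps7 ran from 43.3 to 108 CPM in Sham (median 50.0), 198 to 535 after WM (median 311) and 113 to 496 after RYGB (median 275), with no overlap (log2 fold change 2.47 ± 0.22, adjusted p = 2.77e-08). Rps28 had a log2 fold change of 1.64 ± 0.15 (adjusted p = 2.83e-08). Of 59 genes of oxidative phosphorylation, which makes ATP in mitochondria, 39 were higher by both routes (66.1%) and 0 lower, with a median of 0.84. Ndufb2, a subunit of complex I, ran from 82.5 to 183 CPM in Sham, 216 to 527 after WM and 256 to 604 after RYGB (log2 fold change 1.60 ± 0.17, adjusted p = 2.69e-07), and Atp5k, of the ATP synthase, rose from 279 to 629 CPM in Sham to 826 to 1334 after WM and 628 to 1482 after RYGB (adjusted p = 6.96e-07). The proteasome, which degrades tagged proteins, had 10 of 31 members higher by both routes (32.3%) and 0 lower (median 0.44), led by the core subunits Psmb4 (1.08) and Psmb1 (0.92).

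Transcript length moved with these groups. The median length was 950 bp among the ribosomal genes and 971 bp among those of oxidative phosphorylation, against 2995.5 bp over all tested genes. Genes higher by both routes had a median length of 1519 bp and genes lower by both 4647.5 bp. Among the 2621 genes with transcripts of 57 to 1618 bp, 40.8% were higher and 6.45% lower after weight loss, and among the 2618 with transcripts of 4997 to 123179 bp 4.35% were higher and 34.3% lower. After each library was corrected for smooth trends on length and GC content, 2116 genes were higher and 1926 lower, and 1167 and 890 by both routes, of which 827 and 646 were among those called without the correction. Ribosomal genes then had 49 members higher by both routes and a median of 1.04, and oxidative phosphorylation 24 and a median of 0.41, while the proteasome count went from 10 to 5. The proteasome count was 6 without the 3 libraries holding pancreas transcripts. With library totals 4 proteasome and 23 oxidative phosphorylation genes were higher by both routes. The part of length in these shifts was not tested further.

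**Figure D3:**
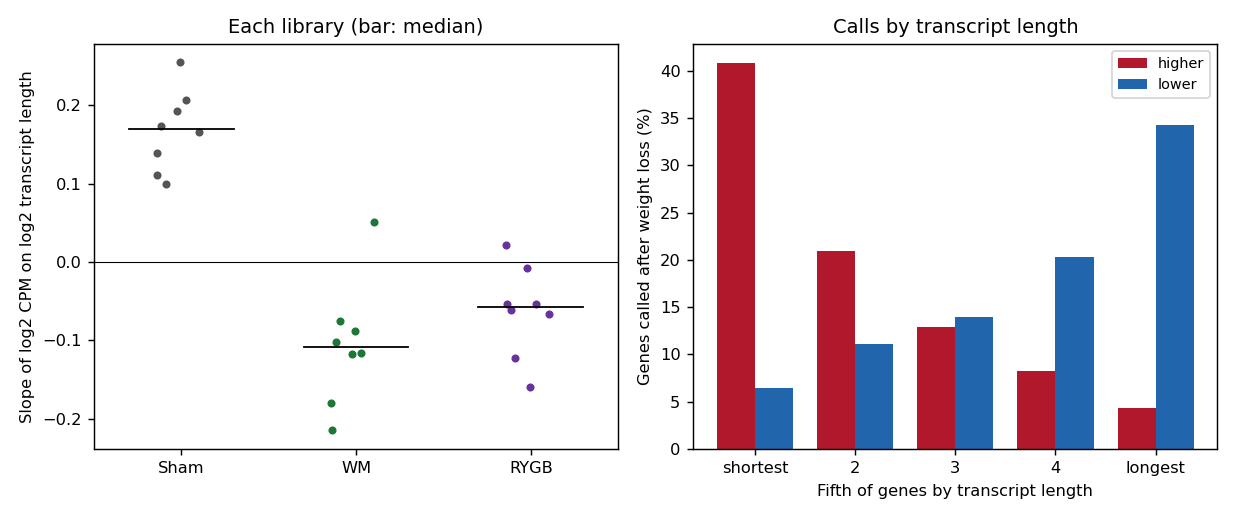
The left panel plots each library's slope on log2 transcript length, for log2 CPM as a deviation from the gene's mean over all libraries. There are 8 libraries per group and a bar at the median. Sham lies at 0.0996 or above and the other 16 libraries at 0.0513 or below. The right panel plots the percent of tested genes called higher (red) and lower (blue) after weight loss in 5 bins of transcript length, from 40.8% higher in the shortest to 34.3% lower in the longest.

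Genes known to be higher in male than in female liver rose together, and several female-biased ones fell. Of 27 male-biased genes tested, 20 were higher by both routes (74.1%) and 0 lower, with a median log2 fold change of 1.85, and Mup17 alone was lower in the mean of the routes (-1.25). Hsd3b5 and Slco1a1, given above, led them, followed by C8b, a part of the membrane attack complex of complement (2.50 ± 0.21), and Nudt7, a peroxisomal hydrolase of coenzyme A (1.85). Of 17 female-biased genes tested, 6 were lower by both routes (35.3%) and 2 higher (11.8%), with a median of -0.96. Gstm3, a glutathione transferase, stood at 31.7 to 312 CPM in Sham (median 195), 4.57 to 33.4 after WM (median 7.46) and 8.94 to 64.6 after RYGB (median 17.5), with a log2 fold change of -3.30 ± 0.36. The female-biased P450s Cyp2c69 (3.90) and Cyp2c40 (2.52) went the other way. Of these 2, 1 was called by both routes without any 1 of Sham 2, 6, 17 or 23 or WM 9, 13 or 30, without the libraries holding pancreas transcripts, after the length and GC correction or with library totals. Of the growth hormone axis itself, 3 of 18 members were higher by both routes (16.7%) and 2 lower (11.1%): Igfbp2, which binds insulin-like growth factors in plasma, went from 33.6 to 64.6 CPM in Sham to 106 to 287 after WM and 180 to 557 after RYGB (log2 fold change 2.48 ± 0.20), the acid-labile subunit Igfals (1.30) and Igf1 (0.62) rose, and Igfbp3 (-1.95) and the activin antagonist follistatin (Fst, -2.44) fell.

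Promoter sequence was examined for the male-biased genes, since they moved together. The motif TTCNNNGAA, the palindrome that STAT5 is known to bind, was searched on both strands in windows of 300 bases around the transcription start (RefSeq, GRCm38.p6). It was present in 1 of 14 members higher by both routes that have a window (7.14%), and in 8.29% of the 9715 tested genes with a window. The member with a match was C8a, another part of the membrane attack complex, where it starts 228 bases before the start site. C8a rose from 108 to 266 CPM in Sham to 168 to 437 after WM and 186 to 489 after RYGB (log2 fold change 1.00 ± 0.18, adjusted p = 0.000181). The windows of C8a, with the match in capitals, and of Hsd3b5, the gene with the largest rise, where there was none, are shown 5′ to 3′ on their minus strands at chr4:104876349-104876648 and chr3:98645485-98645784. RefSeq places the start of Hsd3b5 upstream of the gene end that GENCODE gives (above), so that its window lies outside the GENCODE gene. The absence of these letters from a window of this size says nothing about the factor elsewhere.
C8a: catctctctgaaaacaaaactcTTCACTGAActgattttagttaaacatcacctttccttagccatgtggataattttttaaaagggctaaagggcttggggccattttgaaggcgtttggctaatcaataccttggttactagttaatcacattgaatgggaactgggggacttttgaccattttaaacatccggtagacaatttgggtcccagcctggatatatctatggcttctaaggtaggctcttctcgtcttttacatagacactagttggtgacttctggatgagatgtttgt
Hsd3b5: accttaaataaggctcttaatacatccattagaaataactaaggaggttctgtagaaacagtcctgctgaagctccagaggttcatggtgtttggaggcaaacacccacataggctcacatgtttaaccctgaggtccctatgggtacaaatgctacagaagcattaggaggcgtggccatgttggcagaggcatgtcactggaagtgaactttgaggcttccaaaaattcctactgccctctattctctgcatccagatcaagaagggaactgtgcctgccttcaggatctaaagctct

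Genes of hepatocyte identity, the plasma proteins and factors that define the cell type, were mostly higher. Of 20, 10 were higher by both routes (50%) and 1 lower, with a median of 0.74. Rbp4, the plasma carrier of retinol, stood at 2376 to 3100 CPM in Sham, 4316 to 7087 after WM and 4498 to 6273 after RYGB (log2 fold change 0.94 ± 0.12, adjusted p = 2.04e-06, RYGB minus WM 0.02, 95% interval -0.27 to 0.31). Apob, the scaffold of exported lipoproteins, was the member that fell, from 1128 to 2715 CPM in Sham to 456 to 1197 after WM and 469 to 1249 after RYGB (log2 fold change -1.25 ± 0.19, adjusted p = 8.22e-06). Its value after the length and GC correction was -0.67. Pericentral genes, expressed around the central vein, had 9 of 22 members higher by both routes (40.9%) and 1 lower, led by the ethanol-oxidizing Cyp2e1 (1.54 ± 0.13) and the vasopressin receptor Avpr1a (2.91 ± 0.26). Periportal genes had 8 of 22 higher (36.4%) and 1 lower, led by E-cadherin (Cdh1, 1.51) and the urea cycle enzyme Cps1 (1.26), while Apoa4, an apolipoprotein of fat export, fell from 1603 to 4796 CPM in Sham to 149 to 516 after WM and 94.3 to 345 after RYGB (log2 fold change -3.64 ± 0.24). Amino acid breakdown and the urea cycle had 12 of 41 members higher by both routes (29.3%) and 1 lower (among them Upb1, 1.39), and the methionine cycle 7 of 25 higher (28%) and 1 lower (Nnmt 1.78, Dmgdh 1.10). With library totals, hepatocyte identity had 6 higher and 1 lower by both routes, pericentral genes 4 and 2, and periportal genes 3 and 2. Amino acid breakdown and the urea cycle then had 6 higher and 4 lower, and the methionine cycle 5 and 4.

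Genes induced through the xenobiotic receptors CAR and PXR split. By both routes, 7 of 35 were higher (20%) and 8 lower (22.9%). Without the libraries holding pancreas transcripts 4 were higher. Cyp3a11, the main P450 induced through PXR, stood at 931 to 1569 CPM in Sham (median 1279), 47.7 to 293 after WM (median 143) and 322 to 761 after RYGB (median 492). Both groups lay below Sham without overlap, and they did not overlap with each other. Cyp2b10, the classic CAR target, stood at 1.11 to 13.7 CPM in Sham and at or below 0.149 after WM and 0.512 after RYGB. Cyp2c54, given above, Cyp2c37 (1.57) and Cyp2c50 (1.28) led the rises. Antioxidant targets of the factor NRF2 had 4 of 21 members lower by both routes (19%) and 0 higher, and 7 lower after the length and GC correction, led by Gclc, which makes the precursor of glutathione (-1.83), and the carbonyl reductase Cbr3 (-2.84).

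Genes of cholesterol synthesis that were called by both routes rose, and most of those of fat synthesis fell. Of 26 genes of cholesterol synthesis and uptake, 13 were higher by both routes (50%) and 0 lower, with a median of 1.04. The median of the list was larger after RYGB than after WM. Its summed level overlapped with Sham after WM but not after RYGB. Hmgcs1, which makes the precursor of mevalonate and is given below, was called lower than Sham after WM and higher after RYGB. Cyp51, the sterol demethylase, ran from 49.0 to 116 CPM in Sham (median 83.2), 162 to 269 after WM (median 225) and 267 to 582 after RYGB (median 327). All WM and all RYGB libraries were above Sham, with a log2 fold change of 1.78 ± 0.15 (adjusted p = 5.36e-09), and RYGB was above WM by 0.69 (95% interval 0.33 to 1.04, adjusted p = 0.0386). Ebp, the sterol isomerase, ran from 164 to 243 CPM in Sham, 351 to 762 after WM and 352 to 717 after RYGB (log2 fold change 1.39 ± 0.14, adjusted p = 4.66e-08, RYGB minus WM 0.13, 95% interval -0.20 to 0.45). The squalene epoxidase Sqle (2.17 ± 0.21) and the kinase Pmvk (1.33 ± 0.15) rose by both routes as well. The sterol response motif TCACNCCAC, searched on both strands in the same windows, was in 0 of 8 of the higher members with a window and in 1.44% of tested genes. Of 5 members not called in the mean of the routes that have a window, 1 had it. So few windows cannot tell the list from all genes, and absence from a window says nothing about matches elsewhere.

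Of 28 genes that build fatty acids and triglycerides, 10 were lower by both routes and 1 higher (35.7% lower, against 8.42% of all genes). Their median was -0.55. Scd1, the desaturase that makes monounsaturated fat, stood at 5371 to 9280 CPM in Sham (median 7241), 521 to 4442 after WM (median 1411) and 931 to 3960 after RYGB (median 2401). No treated library reached Sham, with a log2 fold change of -1.80 ± 0.27. Mogat1, an acyltransferase of triglyceride synthesis (-2.79 ± 0.30), the NADPH-making malic enzyme Me1 (-1.47 ± 0.18) and the elongase Elovl6 (-1.68 ± 0.23) fell as well. Lipid droplet and fatty acid uptake genes had 7 of 25 lower by both routes (28%). The 2 that were higher (8%) became 1 without any 1 of Sham 3, 5, 14, 16, 17 or 23, WM 20, 25, 27 or 30 or RYGB 28, and 0 without the libraries holding pancreas transcripts, after the length and GC correction or with library totals. Plin4, a droplet coat protein, ran from 21.0 to 67.0 CPM in Sham, 1.25 to 3.90 after WM and 0.566 to 8.68 after RYGB (log2 fold change -3.44 ± 0.28), and the fatty acid transporter Cd36 ran from 145 to 222 CPM in Sham, 14.6 to 62.0 after WM and 54.6 to 80.9 after RYGB (-1.99 ± 0.18). Fatty acid oxidation and PPAR alpha targets had 4 of 37 higher (10.8%) and 5 lower (13.5%), shares close to those of all genes, among them the thioesterase Acot1 (1.55) and the liver hormone Fgf21 (-2.27). Bile acid synthesis and transport had 6 of 31 higher (19.4%) and 3 lower (9.68%) (Cyp7b1 2.27, Slc10a1 1.33, Abcb4 -0.84), and 1 of 30 genes of glucose metabolism, the glycogen-targeting Ppp1r3c (1.53), was higher by both routes (3.33%) and 0 lower.

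**Figure D4:**
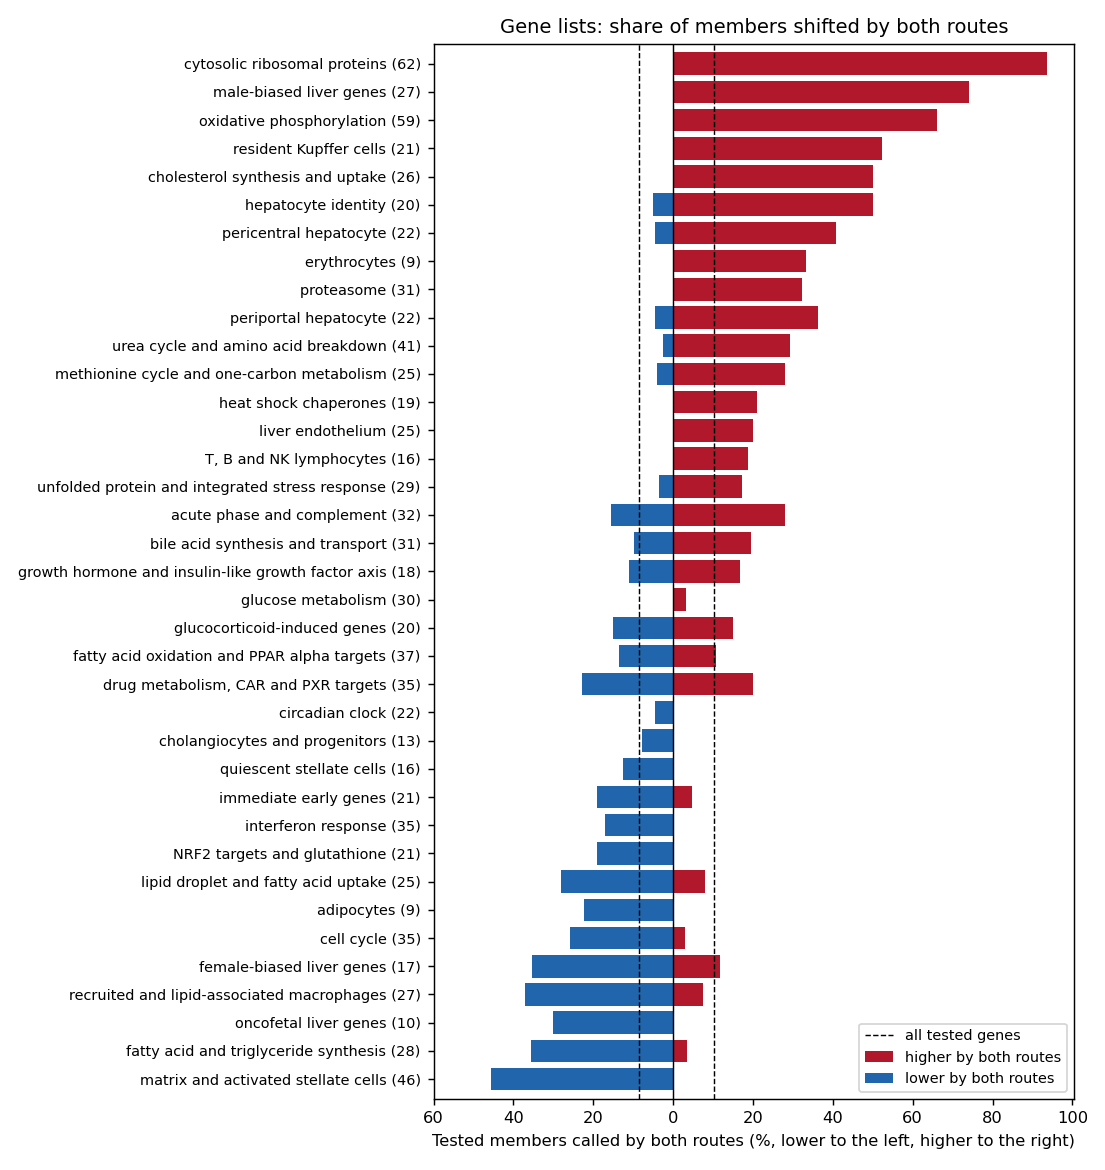
Percent of the tested members of each list (their number in brackets) that were higher (red, to the right) or lower (blue, to the left) by both routes, for lists with at least 8 tested members; dashed lines mark the 10.3% and 8.42% of all tested genes. Ribosomal proteins, male-biased genes and oxidative phosphorylation stand at the top, and matrix genes, fat synthesis and the list named oncofetal at the foot. The oncofetal list also holds Ly6d and Lcn2.

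Collagen and other matrix genes fell by both routes. Of 46 genes of matrix and activated stellate cells, 21 were lower by both routes and 0 higher (45.7%), with a median of -1.15. Col1a1, a chain of the main scar collagen, ran from 21.7 to 72.1 CPM in Sham (median 35.3), 0.373 to 5.78 after WM (median 2.52) and 1.52 to 5.38 after RYGB (median 2.51). The groups did not overlap with Sham, with a log2 fold change of -3.76 ± 0.32 (adjusted p = 7.12e-10). Col1a2 (-2.79 ± 0.28) and Col3a1 (-2.17 ± 0.24), chains of fibrillar collagens, followed. Matrix genes have long transcripts (median 4697 bp), and after the length and GC correction 21 were lower by both routes with a median of -1.01. Of the genes of quiescent stellate cells 2 of 16 were lower by both routes, among them Lrat, which stores retinol (-0.93), and 0 higher. After that correction, or without the libraries holding pancreas transcripts, 1 was lower. Reln, a marker of those cells, was at 12.6 to 28.6 CPM in Sham, 8.87 to 25.0 after WM and 12.3 to 30.6 after RYGB (-0.08, adjusted p = 0.777). In whole-liver RNA, fewer cells of a type and less RNA per cell cannot be told apart, here and for the cell types that follow.

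Markers of resident and of recruited macrophages went opposite ways. Of 21 Kupffer cell markers, 11 were higher by both routes and 0 lower (52.4%), with a median of 0.97, and their summed level was 422 to 816 CPM in Sham, 790 to 1450 after WM and 642 to 1555 after RYGB. Fcna, a secreted lectin of Kupffer cells, ran from 3.34 to 11.1 CPM in Sham (median 5.88), 22.4 to 57.5 after WM (median 31.7) and 19.8 to 54.6 after RYGB (median 37.7), with no overlap (log2 fold change 2.47 ± 0.22, adjusted p = 1.69e-08). Cd163, the scavenger receptor for haemoglobin, ran from 0.692 to 5.95 CPM in Sham, 4.44 to 14.5 after WM and 2.88 to 17.6 after RYGB (2.35 ± 0.36, adjusted p = 3.25e-05). Of 27 markers of recruited and lipid-associated macrophages, 10 were lower by both routes (37%) and 2 higher (7.41%), with a median of -0.49, though their summed level overlapped between groups at 9167 to 44998 CPM in Sham, 10961 to 69869 after WM and 15819 to 45234 after RYGB. Most of that sum is Apoe, an apolipoprotein that hepatocytes make as well (mean 22653 CPM in Sham). Anxa2, which binds membranes (-2.75 ± 0.25), the galectin Lgals1 (-1.86 ± 0.25) and the elastase Mmp12 (-4.03 ± 0.55) led the falls, and Ccr2, the receptor that brings monocytes in, ran from 3.76 to 21.6 CPM in Sham, 0 to 4.92 after WM and 1.32 to 6.80 after RYGB. The 2 that rose were Tyrobp (1.36) and Lyz2 (1.17), which resident macrophages express too. Of these, 1 was called by both routes without any 1 of Sham 5, 6, 14, 16, 17 or 23, WM 13 or 20 or RYGB 22 or without the libraries holding pancreas transcripts, and 0 after the length and GC correction or with library totals. Without the 3 libraries holding pancreas transcripts, 9 Kupffer markers were higher and 10 recruited markers lower by both routes. With library totals 5 Kupffer markers were higher and 11 recruited markers lower by both routes.

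Endothelial markers had 5 of 25 members higher by both routes (20%) and 0 lower (median 0.66), led by Egfl7 (1.66) and Wnt2 (1.82), a ligand of the central vein endothelium; without Sham 2 the count was 11, and after the length and GC correction 8. Lymphocyte markers had 3 of 16 higher by both routes (18.8%) and 0 lower (median 1.44), among them the T cell receptor part Cd3d (2.24) at 0.0742 to 0.756 CPM in Sham, 0.726 to 4.11 after WM and 0.253 to 5.38 after RYGB. In the mean of the routes 9 were higher, and 4 or 5 without any 1 of Sham 2, 3, 5, 16 or 17, WM 20 or RYGB 18. After the length and GC correction 1 was higher by both routes. Erythrocyte genes had 3 of 9 higher (33.3%) and 0 lower, and the globin Hbb-bs stood at 593 to 1781 CPM in Sham, 1133 to 7226 after WM and 2046 to 4280 after RYGB (1.56). Of the 13 tested cholangiocyte and progenitor genes 1 was lower by both routes, of 9 adipocyte genes 2 were lower, which were Cidec and Cidea, and of 3 neutrophil genes 0 were called. The adipocyte hormone Adipoq was at 8.84 CPM or less in every library. The globin was higher than Sham, as were several of these lists. Whether they vary together across libraries was not tested, nor was the part of blood held in the tissue.

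Cell cycle genes called by both routes were lower in all but 1 case. Stress lists differed in direction. Of 35 cell cycle genes, 9 were lower by both routes (25.7%) and 1 higher, with a median of -1.17. Cdkn1a, the inhibitor p21 that halts the cycle, ran from 11.1 to 79.1 CPM in Sham (median 35.9), 0.810 to 6.05 after WM (median 2.02) and 2.15 to 8.45 after RYGB (median 4.40). Its groups did not overlap with Sham, with a log2 fold change of -3.55 ± 0.36. The cyclin Ccnd1 (-1.29 ± 0.17) and the mitotic Hmmr (-3.06 ± 0.54) also fell, and the thymidine kinase Tk1 (1.88 ± 0.18) was the member that rose. Acute phase and complement genes had 9 of 32 higher by both routes (28.1%), led by Serpina3k (1.69) and Apcs (0.97), and 5 lower (15.6%), led by Orm3 (-2.53) and the iron-binding lipocalin Lcn2 (-3.27). With library totals 1 acute phase or complement gene was higher by both routes and 7 were lower. The list named oncofetal, of genes that appear in damaged or cancerous liver, had 3 of 10 lower (30%) and 0 higher. These were the imprinted RNA H19 (-3.17) together with Ly6d and Lcn2. Ly6d is given above with genes of squamous or stressed epithelium, and Lcn2 is counted among the acute phase genes as well. Immediate early genes had 4 of 21 lower (19%) and 1 higher, with Jun (-1.69 ± 0.16) and Klf6 (-1.46 ± 0.17) separated from Sham in every library. Interferon response genes had 6 of 35 lower (17.1%) and 0 higher, led by Ifi44 (-1.68), and 12 lower without WM 13. The unfolded protein response had 5 of 29 higher (17.2%, among them Xbp1 at 0.82 and Sdf2l1 at 1.33) and 1 lower, heat shock chaperones 4 of 19 higher (21.1%) and 0 lower, glucocorticoid-induced genes 3 of 20 higher and 3 lower (15% each), and the circadian clock 0 of 22 higher and 1 lower. The heat shock count was 2 without any 1 of Sham 5, 6 or 16 or RYGB 15 or 28, and 7 without Sham 14. After the length and GC correction 1 heat shock and 2 unfolded protein genes were higher. With library totals 1 heat shock gene was higher and 1 lower by both routes, and 2 unfolded protein genes were higher and 3 lower.

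A small set of genes moved by both routes but by unequal amounts. They were 1.46% of the genes moved by both routes, near the 1.49% of all tested genes with RYGB minus WM called. Of the 36 with a called difference between RYGB and WM, 20 were lower than Sham, and all 20 were lower still after WM than after RYGB. The other 16 were higher than Sham, 10 of them higher after RYGB and 6 higher after WM. Dhrs9, a retinol and steroid dehydrogenase, ran from 3.41 to 12.2 CPM in Sham (median 6.05), 0.139 to 0.545 after WM (median 0.301) and 1.02 to 4.54 after RYGB (median 3.25). WM lay apart from both other groups, while RYGB overlapped with Sham, and RYGB minus WM was 3.29 (95% interval 2.57 to 4.00, adjusted p = 1.7e-06). Tff3, a trefoil peptide of mucous surfaces, ran from 0.0643 to 0.890 CPM in Sham, 0.363 to 4.04 after WM and 2.56 to 28.9 after RYGB, with RYGB above WM by 2.77 (95% interval 1.73 to 3.81, adjusted p = 0.0037). Cidea was higher in RYGB than in WM by 2.31 (95% interval 1.15 to 3.46, adjusted p = 0.03). Gprc5b, an orphan receptor, ran from 3.58 to 7.10 CPM in Sham, 0 to 0.418 after WM and 0 to 1.62 after RYGB, with RYGB above WM by 2.23 (95% interval 0.97 to 3.50, adjusted p = 0.047). Among list members, Cyp3a11 (1.71), Cd36 (1.07), Msmo1 of sterol synthesis (1.02), the elongase Elovl3 (1.36), Cdh1 (1.30), Cyp2c69 (2.24), Cyp2c40 (2.13), Orm3 (2.15), Btg2 (0.74) and Col15a1 (1.39) also had RYGB above WM, as log2 differences. The number of such genes was 23 without WM 27 or without RYGB 29.

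**Figure D5:**
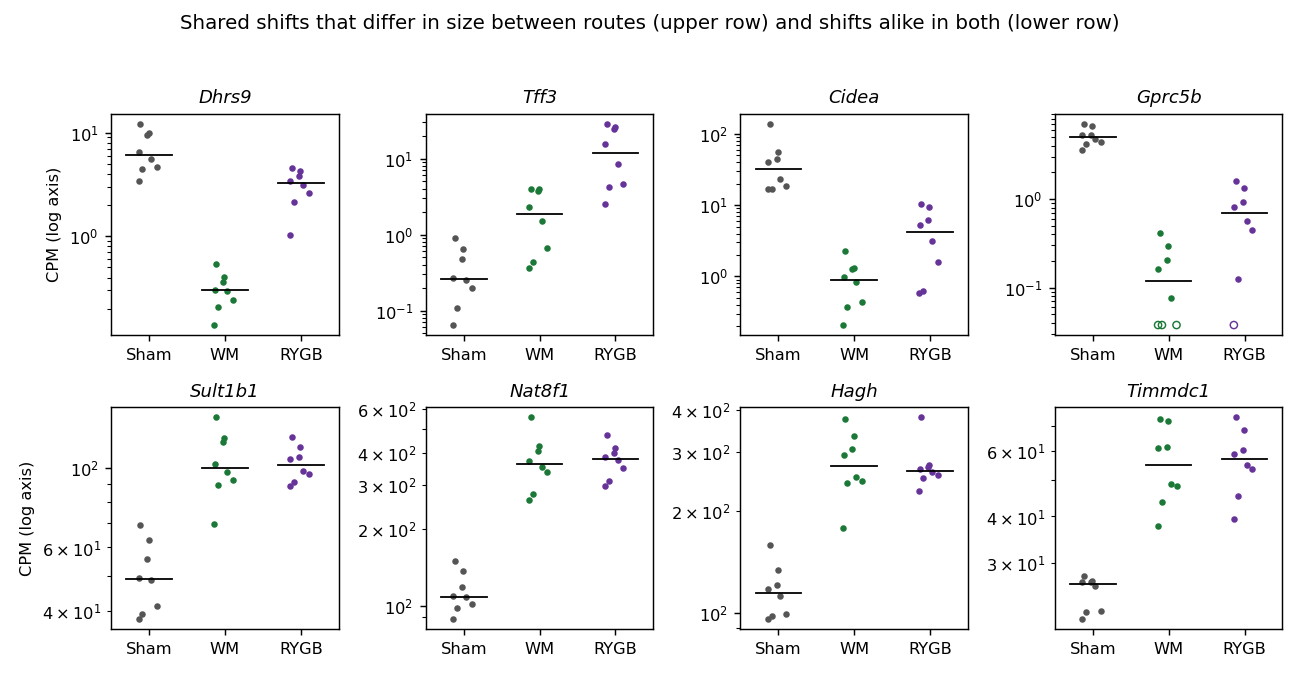
CPM of each library on log axes for the 4 genes with the largest called difference between routes among those moved by both routes that passed the naming rule (upper row) and 4 of the 6 genes whose shift was most closely alike (lower row), with 1 point per library, 8 per group, a bar at the median and open circles for libraries with no count. Dhrs9, Cidea and Gprc5b are lowest in WM and Tff3 is highest in RYGB, while Sult1b1, Nat8f1, Hagh and Timmdc1 cover like ranges in WM and RYGB, above Sham.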

How the data were processed

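Liver RNA of 24 mice was measured by 3′ counting: per the labels' protocols, RNA of snap-frozen livers was extracted with Trizol and RNeasy columns and made into QuantSeq libraries, which are primed at the poly(A) end and were read for 50 bp on the forward strand. As a transcript gives about 1 fragment whatever its length, no division by length was made. The authors deposited a table of raw counts per gene for 14995 genes, in which the smallest mean count of a gene is 3, and a second deposited table with a normalized signal, each count divided by a size factor of its library. R 4.1.2 and DESeq2 1.34 are named in the submitters' processing notes. The sources used here do not give the aligner, the counter, the build, the strand setting or the handling of multiply matching reads. Gene symbols, positions and transcript lengths came from GENCODE M21 (GRCm38).

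The raw counts were fitted with edgeR 4.0.16 in R 4.3.3 (filterByExpr over groups, TMM, quasi-likelihood F-test, Benjamini-Hochberg over 13121 genes, calls at an adjusted p under 0.05, common biological coefficient of variation 0.398), in 1 fit of 24 libraries with no covariate. Contrasts were the mean of WM and RYGB minus Sham, each route minus Sham and RYGB minus WM, the last with a 95% Wald interval. Levels are TMM-scaled CPM, which assumes that most genes do not change. Library measures had two-sided exact permutation tests, 8 Sham against 16 other libraries. Groups follow the labels, which number the samples but do not say that they came from separate cages or days, so that p-values measure the spread between these samples. The procedure was tested on simulated counts. Total counts of 13659647 to 22766612 per library limit precision at low levels, and floors and counting intervals cover counting error only.

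The rule for named genes took genes called by both routes that reach a group mean of 5 CPM and all 16 treated libraries beyond the Sham median, and no predicted genes or clones (1485 genes). Of these it took the 8 highest and 8 lowest fold changes, the 6 at least 2-fold genes with the narrowest RYGB minus WM interval around 0, the 2 lowest-p members of the 6 lists with the largest share moved by both routes, and the 4 largest called differences between routes, 34 genes in all. List members were given as examples in order of p among called members; Alb, Reln, Adipoq, Ccr2, Apoe, C8a, all called members of short lists and those with a route difference were named after their values were seen. The 39 lists came from textbook knowledge. The comparison, members and lists were chosen with earlier results of these data known, so that list counts are to be read against the shares of all genes and no list test was made. Promoter windows came from RefSeq (GRCm38.p6).

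Alternatives were DESeq2 1.42.0, RLE factors, library totals, all genes without filtering, only genes at 1 CPM in 8 libraries, limma-voom with quality weights and limma-trend on the deposited normalized signal (log2, pseudocount of 1) (limma 3.58.1), a minimum log2 fold change of 1, a 2-group fit, correction of each library for smooth length and GC trends (mgcv 1.9.3), leaving out the 3 libraries with pancreas transcripts, leaving out each library in turn and an interval margin of 1.5-fold.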

Additional observations from a re-analysis of the deposited data

Results flagged for a closer look

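Among the genes named by rule, 1 library stood far from the rest in 15 of 102 group-by-gene values. Its gap to the nearest other library, divided by the range of the group, exceeded Dixon's 95% critical value for 8 samples. For normally distributed values chance gives about 1 in 20. CPM was used without a logarithm, and in all 15 cases the far library lay above the others. Whether CPM follows that rate was not tested, so 15 of 102 does not measure an excess over chance. Sham 14 was far above the other Sham libraries in Hsd3b5 (0.742 CPM, next 0.249), Slco1a1 (18.0 CPM, next 4.75), Mup11 (297.6 CPM, next 56.0) and Cidea (140.2 CPM, next 55.1). Sham 2 was far above in the macrophage genes Gpnmb (38.3 CPM, next 7.14) and Cd163 (5.95 CPM, next 1.89). WM 7 was far above the other WM libraries in Gpnmb (3.68 CPM, next 0.299) and Sdcbp2 (0.886 CPM, next 0.348), WM 25 in Cyp4a12b (42.6 CPM, next 12.1) and WM 1 in Mup11 (3324 CPM, next 820). In RYGB the far library was RYGB 18 for Cyp4a12b (86.2 CPM, next 39.6), RYGB 19 for Sprr1a (0.448 CPM, next 0.0827), RYGB 22 for Ly6d (15.0 CPM, next 6.72) and RYGB 11 for Hagh (379.5 CPM, next 274) and Ndufb2 (603.7 CPM, next 374). For each of these genes the shift after weight loss kept its direction and its call in edgeR's test when any 1 library was left out.

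The size of the shift differed between RYGB and WM by a test of the difference itself (edgeR, adjusted p under 0.05) for 5 named genes, with log2 differences RYGB minus WM of 3.285 for Dhrs9, 2.775 for Tff3, 2.306 for Cidea, 2.234 for Gprc5b and 0.686 for Cyp51.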

How the results depend on the processing

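No setting reversed a named gene, and of 1190 values of the 34 named genes under the alternatives 1183 kept their direction and call; the other 7 (Sult1b1, Hagh, Timmdc1, Gemin7, Atp5k, Rbp4 and Apob) did not pass a test against a minimum log2 fold change of 1. Counts over all genes under RLE factors, no filtering of genes, a minimum of 1 CPM in 8 libraries, limma-trend, the length and GC correction and the fit without the 3 libraries holding pancreas transcripts were within 1.5 times those reported, as were those of the 2-group fit where it gives them. Library totals gave 1051 genes higher and 4560 lower, 593 and 2713 by both routes and 63 and 383 separated, a shift that follows from the median of all genes moving to -0.35. Of 78 counts by both routes, 2 for each list, 22 moved by over 1.5 times under the length and GC correction, 11 without the 3 libraries and 38 under library totals, of which 14, 8 and 17 were counts of at most 2. Medians of bile acid, growth hormone axis, unfolded protein, acute phase, circadian and neutrophil genes changed sign under library totals, at -0.18, -0.21, -0.15, -0.22, -0.17 and -0.26. limma-voom gave 3435 genes lower, 1925 lower by both routes and 64 with a called difference between routes, and DESeq2 gave 73 of the last kind; the cause was not tested. A minimum log2 fold change of 1 gave 142 higher and 142 lower, 65 and 55 by both routes, 52 alike, 86 and 72 separated and 0 with a difference between routes at that minimum. An interval margin of 1.5-fold gave 926 alike. Leaving out 1 library in turn gave 1968 to 2376 genes higher, 1833 to 2440 lower, 1176 to 1436 and 852 to 1190 by both routes, 1635 to 2014 alike, 23 to 45 with a difference between routes, 234 to 319 separated higher and 146 to 238 separated lower, the last reaching 238 without Sham 2 and 217 without Sham 3, since fewer libraries must lie apart. No paired analysis was possible because the groups share no replicate numbers in the labels. The depth of 13659647 counts or more per library leaves genes such as Cyp2b13 and Sprr1a after weight loss at or near 0 counts, where only bounds can be given.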

Other observations

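A mean over 2 routes hides genes that the routes moved in opposite directions from Sham. With edgeR's test, 5 genes were called against Sham after both WM and RYGB, in opposite directions, and differed between RYGB and WM as well. Members of the lists among them were Slc51b, a subunit of the basolateral bile acid exporter, and Hmgcs1, which makes the precursor of mevalonate for sterols. The other 3 were Id1, an inhibitor of differentiation factors, which was higher than Sham after WM and lower after RYGB (log2 fold changes 0.91 and -1.38), and the solute carriers Slc41a2 (-1.08 and 0.72) and Slc45a3 (-0.56 and 0.62), which were lower after WM and higher after RYGB. These genes were chosen after their values were seen. Slc51b stood at 0.593 to 3.24 CPM in Sham (median 1.53), 0.146 to 0.623 after WM (median 0.348) and 2.91 to 9.09 after RYGB (median 4.29). WM and RYGB did not overlap, each reached into the Sham range with its nearest library, and RYGB minus WM was 3.72 on the log2 scale (95% interval 2.93 to 4.52, adjusted p = 1.7e-06). Hmgcs1 stood at 159.9 to 358 CPM in Sham, 67.1 to 254 after WM and 251 to 856 after RYGB, with RYGB above WM by 1.88 ± 0.26 (SE, adjusted p = 0.000138), while their ranges met at 251 to 254 CPM. In the mean of the routes neither gene was called, with log2 fold changes of -0.27 and 0.09.

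Hamp, chosen in the same way, the hormone that limits iron uptake, stood at 134 to 734 CPM in Sham, 123 to 1438 after WM and 0.197 to 111 after RYGB. All 8 RYGB libraries lay below every Sham and WM library, RYGB minus WM was -4.74 (95% interval -6.33 to -3.15, adjusted p = 0.00332), and the log2 fold change of -1.40 in the mean of the routes was not called (adjusted p = 0.0925).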
